A study of Mus musculus with 4 samples.

Results

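Mediator is the large coactivator complex that carries signals from DNA-bound transcription factors to RNA polymerase II at promoters. Its subunits form a head, a middle and a tail module joined by the scaffold subunit Med14. A separable kinase module, made of the kinase Cdk8 or its paralog Cdk19, cyclin C, Med12 or Med12l and Med13 or Med13l, binds the core reversibly and hinders its contact with the polymerase. The transcripts of these subunits were followed in spermatocytes with and without TDRD6, a protein with Tudor domains found in the cytoplasmic granules of male germ cells. The members were the genes with a symbol of Med and a number, with or without a final l, together with Ccnc, Cdk8 and Cdk19. The rule gave 33 genes of the 37718 gene rows, 415 of 207562 introns, 731 of 359565 exon segments and 513 of 240574 annotated splice junctions. By module these were 9 head, 9 middle, 7 tail and 7 kinase genes and the scaffold gene Med14. Accounts differ on the module of Med26, Med27, Med28, Med29 and Med30.

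The samples were 2 libraries from Tdrd6+/- mice and 2 from Tdrd6-/- mice, all at 20 dpp (days post partum), each a pool of testes from 4 or more mice. The controls are heterozygous, so all samples lack at least 1 working Tdrd6 allele. Human CD4 driven by the endogenous Tdrd6 promoter marked the germ cells in both genotypes, and hCD4+ cells, described in the design as diplotene cells, were caught on magnetic beads, so that the activity of this promoter set which cells were sampled. Total RNA was depleted of rRNA and sequenced from directional libraries, and the counts per gene summed to between 26454326 and 31388750 a sample, with a further 9603669 to 13937818 counts in introns. The intron share of all tallied fragments was 31.0% and 27.1% in Tdrd6+/- and 27.4% and 21.9% in Tdrd6-/-, so the second Tdrd6-/- library held the fewest intron counts. Tdrd6 itself had 33220 and 39322 counts in Tdrd6+/- and 359 and 400 in Tdrd6-/-, a log2 fold change of -6.81 ± 0.17 (SE, n = 2 against 2, edgeR adjusted p = 8.4e-18). Markers of late prophase spermatocytes summed to between 9049 and 10470 CPM (read counts set relative to the total of each library), with Piwil1 lower and Sycp1 and Sycp2 higher in Tdrd6-/- among the 10 genes, against 22.5 to 31.2 CPM for markers of spermatogonia and early meiosis, 37.9 to 48.5 CPM for Sertoli markers, 17.1 to 22.1 CPM for Leydig markers and 2.41 to 3.21 CPM for blood markers. Spermatid markers summed to 10.2 and 13.6 CPM in Tdrd6+/- and 22.5 and 20.6 CPM in Tdrd6-/-. Of their 7 genes 3 had enough counts for the test, and 2 of these, Acrv1 and Spaca1, rose. The nuclear proteins that define late spermatids were near 0, with Prm1 at 0 counts in 3 of 4 libraries. The part of these cells in the changes below was not tested, and in bulk RNA fewer cells of a type cannot be told apart from less RNA per cell. All p-values rest on the spread between 2 pools per genotype, estimated for each gene or feature with help from the others. With a sample left out, 1 genotype has a single library, and the spread comes from the other genotype alone.

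The called exon segments lay in Med15, and a pair of neighbouring exons of that gene is shown here for this reason. A pair from Cdk8, the gene that fell most, is shown because its counts are described along the transcript below, although none of its segments was called. All 4 are coding exons, given on the sense strand as annotated by GENCODE for mm10. Exon 4 of Cdk8 (chr5:146271595-146271735, plus strand, 141 bases) holds the segments E009 and E010, and exon 5 (chr5:146283629-146283686, plus strand, 58 bases) is segment E011. Exon 10 of Med15 (chr16:17655678-17655805, minus strand, 128 bases) is segment E009, and exon 11 (chr16:17655444-17655571, minus strand, 128 bases) is segment E008. The Med15 segments were placed by the single annotated transcript with 18 exons, as many as its deposited segments. Its numbers of segments and junctions did not both match the annotation. Capitals mark the 10 bases on either side of the border at which the exons of each pair are joined.
Cdk8 exon 4: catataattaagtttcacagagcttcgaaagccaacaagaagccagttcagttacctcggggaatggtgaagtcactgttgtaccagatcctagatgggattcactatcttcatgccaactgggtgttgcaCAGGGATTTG
Cdk8 exon 5: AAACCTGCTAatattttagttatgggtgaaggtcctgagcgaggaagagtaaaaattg
Med15 exon 10: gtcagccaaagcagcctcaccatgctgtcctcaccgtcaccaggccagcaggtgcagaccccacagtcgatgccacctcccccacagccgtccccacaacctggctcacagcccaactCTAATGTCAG
Med15 exon 11: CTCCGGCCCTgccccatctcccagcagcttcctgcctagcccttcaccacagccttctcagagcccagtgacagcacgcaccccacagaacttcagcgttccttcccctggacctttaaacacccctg

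The Med15 exons were 62.5% and 61.7% G or C, above the median of 56.9% over the 18 exons of that transcript. The Cdk8 exons were 44.7% and 37.9% G or C, around the median of 42.1% over its 13 exons.

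All 33 genes were detected in every sample, at 92 to 8775 counts a gene and sample. Levels were compared between genes as CPM per kb of annotated exon, with the CPM scaled by the trimmed mean of M values (TMM). On this scale 30 of the 33 genes lay above the median of the 19417 genes with at least 10 counts, which was 1.99 CPM per kb. The members spanned 240-fold from the highest to the lowest. The order of the 33 levels was nearly the same in both genotypes (Spearman rho 0.97 over 33 genes of the same 4 libraries, a description). Neighbours in the order could mostly not be separated, since the ranges over 4 samples overlapped in 29 of 32 neighbouring pairs. The breaks lay between Med16 and Med1, between Med13l and Med12l, and between Med14 and Med12. The last of these and the 240-fold span rest on 17963 bases for Med12, the length of the unit it was counted in. Its own exons cover 7704 bases.

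**Figure D1:**
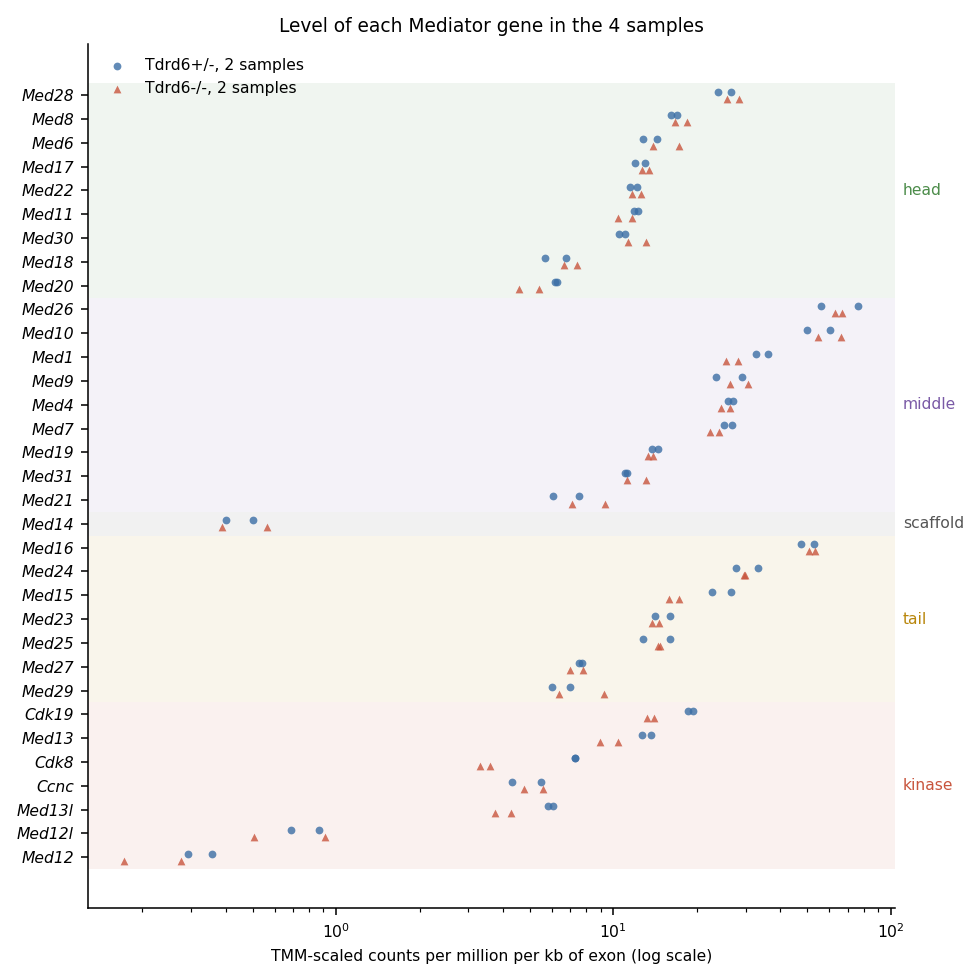
TMM-scaled CPM per kb of exon (log axis) of each Mediator gene, by module, with circles for the 2 Tdrd6+/- samples and triangles for the 2 Tdrd6-/- samples. The middle module holds the highest genes, Med12, Med14 and Med12l lie below 1 CPM per kb, and both Cdk8 triangles lie well below both circles.

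The middle module, which connects the head to the tail and receives the kinase module, held the most abundant transcripts. Med26, a subunit that recruits elongation factors, was highest of all at 56.2 and 76.3 CPM per kb in Tdrd6+/- and 67.0 and 63.1 in Tdrd6-/-. Med10 followed at 60.5 and 50.1 against 54.6 and 66.2 CPM per kb, so the samples of the genotypes overlapped for both genes. The place of Med10 rests on an exon length of 913 bases, as its deposited segments match it, against 4491 bases over all annotated transcripts, and in CPM it had 45.8 to 60.5 against 168 to 229 for Med26. The lowest middle gene was Med21, at 7.52 and 6.08 against 7.10 and 9.32 CPM per kb. Med1, the subunit contacted by nuclear receptors, had 32.8 and 36.0 against 28.2 and 25.5 CPM per kb, Med9, Med4 and Med7 had means between 24.5 and 27.4 over the 4 samples, and Med19 and Med31 lay at 13.9 and 11.7.

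In the head, which contacts the polymerase, Med28 was highest at 23.9 and 26.5 CPM per kb in Tdrd6+/- and 25.6 and 28.3 in Tdrd6-/-. The lowest was Med20 at 6.14 and 6.27 against 5.39 and 4.55, with both Tdrd6-/- samples below both Tdrd6+/- samples. The counts of Med20 were deposited only as a unit with the overlapping genes Usp49 and Gm20517, so this value is that of the unit. Its place as the lowest rests on the 17495 bases of the unit, against 7324 bases of Med20 itself. Med17, the core of the head, had a mean of 12.8 CPM per kb, and the other head genes Med8, Med6, Med22, Med11, Med30 and Med18 ranged from 6.61 for Med18 to 17.0 for Med8.

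In the tail, where many activators bind, Med16 was highest at 47.7 and 53.1 CPM per kb in Tdrd6+/- and 50.9 and 53.3 in Tdrd6-/-. Med29 was lowest at 5.99 and 6.98 against 6.39 and 9.22. The genotypes overlapped for both. Med24 had a mean of 30.1, Med23 of 14.7, Med25, the target of the viral activator VP16, of 14.5, and Med27 of 7.48 CPM per kb. Med23 and Med24 each share a row with a small RNA gene (Gm23410 and Gm22059).

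The X-linked members were among the 3 lowest. Med14, the backbone of the core complex, had only 0.401 and 0.50 CPM per kb in Tdrd6+/- and 0.563 and 0.389 in Tdrd6-/-. Med12, which activates the kinase Cdk8, had 0.291 and 0.358 against 0.275 and 0.172 CPM per kb, counted as a unit with Nlgn3 and Gm21986. Over all genes, those on the X chromosome had a median of 0.45 CPM per kb (869 genes), against 2.21 on the autosomes (18504 genes). The autosomal Med12 paralog Med12l was also low, at 0.687 and 0.864 against 0.913 and 0.507 CPM per kb. The transcription of the sex chromosomes is known to be shut down in pachytene spermatocytes.

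Within the kinase module the 2 kinases differed in level. Cdk19 was the highest of the 7 genes at 19.3 and 18.6 CPM per kb in Tdrd6+/- and 14.01 and 13.2 in Tdrd6-/-. Cdk8 had 7.28 and 7.27 against 3.59 and 3.31, so that every Cdk19 value lay above every Cdk8 value. Med13, which tethers the kinase module to the core, had 13.6 and 12.7 against 10.4 and 8.95, and its paralog Med13l had 6.07 and 5.82 against 4.28 and 3.74. Ccnc, which encodes cyclin C, the partner of both kinases, had 5.49 and 4.30 against 4.74 and 5.59. The module medians over the 4 samples were 26.0 CPM per kb for the middle, 14.7 for the tail, 11.98 for the head and 5.03 for the kinase module. The place of the middle above the tail rested on the length correction. Divided by the median of all members, the middle was at 1.99 and the tail at 1.19 per kb, but at 1.20 and 1.67 in CPM without it.

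The next question was which of these genes changed without TDRD6, tested with edgeR's quasi-likelihood test on the gene counts of all genes. All 33 members passed the filter on low counts. With an adjusted p under 0.1 taken as a call, 5 members fell and 0 rose, against 3.78% of the 16555 genes tested called lower and 1.02% called higher. A total of 7 members had an unadjusted p under 0.05, the 5 called genes, Med1 and Med20, and DESeq2 called the same 5 genes. Of the 5 that fell, 4 belonged to the kinase module (Cdk8, Med13l, Cdk19 and Med13, of 7 genes) and the remaining gene was Med15 of the tail. The head and middle modules had 0 calls among 18 genes by this test.

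Cdk8 showed the largest change of the 33. It had 740 and 786 counts in Tdrd6+/- and 440 and 411 in Tdrd6-/-, or 28.3 and 28.2 against 13.9 and 12.8 TMM-scaled CPM. The replicates of each genotype lay close together and the genotypes were far apart. The change was 2.11-fold lower, -1.08 ± 0.18 on the log2 scale (SE, adjusted p = 0.000731). Cdk8 was called with each sample left out in turn, between -1.14 and -1.01.

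Med15, a tail subunit that binds activators of lipid metabolism and TGF-beta signalling, fell from 77.3 and 90.4 CPM in Tdrd6+/- to 58.7 and 54.1 in Tdrd6-/-. Both Tdrd6-/- values were below both Tdrd6+/- values, and the log2 fold change was -0.57 ± 0.14 (adjusted p = 0.0244). Med13l fell from 56.4 and 54.1 CPM to 39.7 and 34.7, with a log2 fold change of -0.57 ± 0.15 (adjusted p = 0.036). Cdk19 fell from 112 and 108 CPM to 81.3 and 76.6, with a log2 fold change of -0.48 ± 0.13 (adjusted p = 0.0487). Med13 fell from 148 and 137 CPM to 113 and 97.0, with a log2 fold change of -0.44 ± 0.13 (adjusted p = 0.0784). The groups did not overlap for any of these genes. Without the second Tdrd6-/- library, the library with the fewest intron counts, only Cdk8 was still called. With the first Tdrd6+/- or the first Tdrd6-/- library left out, Cdk8, Med13l and Med15 were called. Without a filter on low counts Cdk8 alone was called.

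**Figure D2:**
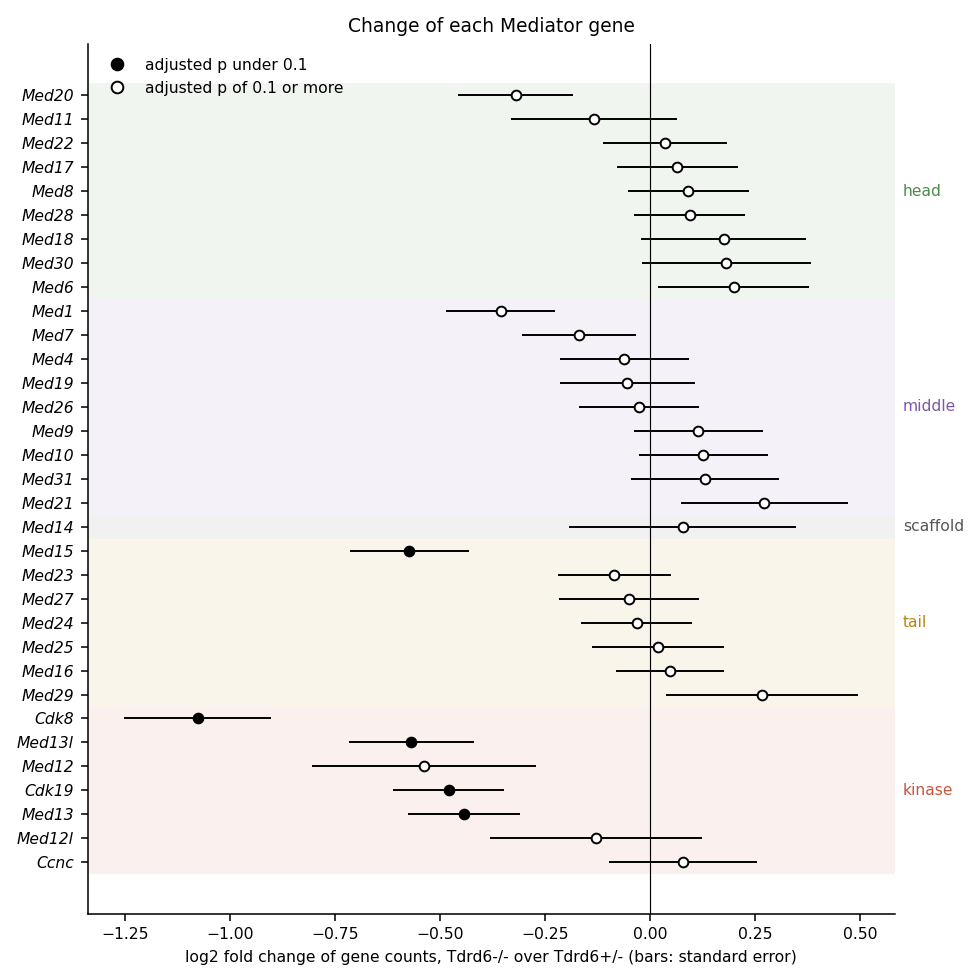
Log2 fold change of gene counts (Tdrd6-/- over Tdrd6+/-) with its standard error for each Mediator gene, by module. Filled points are the 5 genes with an adjusted p under 0.1, of which 4 lie in the kinase module, where the points range from -1.08 (Cdk8) to 0.08 (Ccnc).

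The rest of the kinase module was not called. Med12 had 137 and 179 counts in Tdrd6+/- and 156 and 99 in Tdrd6-/-, and its log2 fold change of -0.54 ± 0.27 did not pass (adjusted p = 0.373). For Med12l the value was -0.13 ± 0.25 and for Ccnc 0.08 ± 0.18 (adjusted p = 0.893 and 0.905). The median change of the 7 kinase genes was -0.48. The head had a median of 0.09, the middle of -0.03 and the tail of -0.03, and the 16555 genes tested had one of 0.01. Outside the kinase module 11 of 26 members had a value under 0 and 15 a value over 0.

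No other gene outside the kinase module was called apart from Med15, the lowest of the tail. The lowest and highest log2 fold changes in the head were Med20 with -0.32 ± 0.14 (adjusted p = 0.272, counted with Usp49) and Med6 with 0.20 ± 0.18 (adjusted p = 0.706). In the middle they were Med1 with -0.36 ± 0.13 (adjusted p = 0.173) and Med21 with 0.27 ± 0.20 (adjusted p = 0.609). In the tail, Med29 had the highest value with 0.27 ± 0.23 (adjusted p = 0.685). The scaffold gene Med14 had 92 and 122 counts against 156 and 109, a log2 fold change of 0.08 ± 0.27 (adjusted p = 0.942). For Med16 and Med26 the values were 0.05 ± 0.13 and -0.03 ± 0.14, and for Med10 and Med28 0.13 ± 0.15 and 0.09 ± 0.13. Both Tdrd6-/- samples lay below both Tdrd6+/- samples in 10 of the 33 genes and above them in 2, against 23.4% and 20.1% of all genes tested, and 5 of those 10 were kinase genes.

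Long genes fell more often than short ones in this comparison, and 4 of the 5 called members were kinase genes, whose median exon length was 9296 bases against 2934 for the other members, with merged genes at the length of their unit. With each gene at its own length, 7704 bases for Med12, the medians were 7704 and 2934 bases. Across the 16187 genes with a length, the median log2 fold change went from 0.11 at 1 to 2 kb of exon to -0.18 above 10 kb, and the share called lower from 1.12% to 14.6%. The rank correlation of exon length and change was -0.21 over all these genes and -0.59 over the 33 members, which share the same 4 libraries. Cdk8 (3881 bases) and Med15 (3410 bases) lay in the class of 3 to 4 kb, where the median was 0.02 and 2.75% of genes were called lower. Over all annotated transcripts they had 9832 and 11642 bases. The classes were built on the shorter lengths of all genes, so their shares do not apply to these values. The length correction below used the shorter values. Cdk19 (5807 bases) belonged to a class with 3.82% called lower, Med13l (9296 bases) to one with 8.67% and Med13 (10840 bases) to the class above 10 kb with 14.6%. With the trend on exon length taken out of each sample, a step chosen after seeing the data, Cdk8 had a log2 fold change of -1.07 (adjusted p = 0.00278) and Med15 of -0.58 (adjusted p = 0.0402). Cdk19 then had -0.41 (adjusted p = 0.101), Med13l -0.42 (adjusted p = 0.131) and Med13 -0.27 (adjusted p = 0.334), and the median of the kinase module was -0.28.

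**Figure D3:**
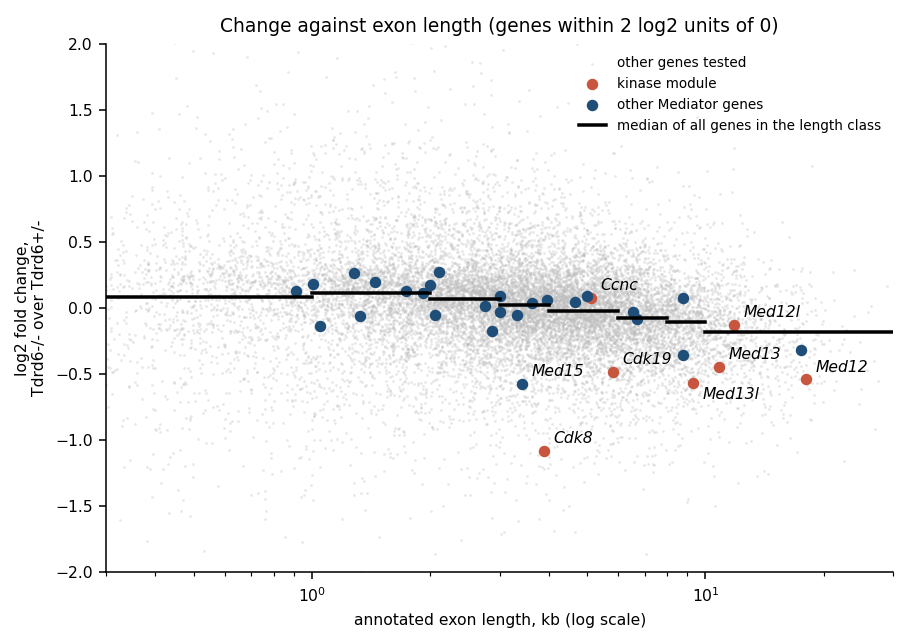
Log2 fold change (Tdrd6-/- over Tdrd6+/-) against annotated exon length in kb (log axis) for the genes tested, with the Mediator genes as large points and the median of all genes in each length class as a black line. The line falls from 0.11 at 1 to 2 kb to -0.18 above 10 kb, and Cdk8 and Med15 lie far below it at 3 to 4 kb. Med12 and Med20 are drawn at the length of the units they were counted in.

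To see whether intronic RNA of the members moved with the gene counts, the counts over all introns of each gene were tested in the same way. Intron counts were scaled by TMM among themselves, apart from the gene counts. A difference in intron share between libraries is thus scaled out, and CPM of introns and of genes lie on separate scales. In this test 0 of 33 members were called, against 1.42% of 15025 genes, while 4 members had an unadjusted p under 0.05 in edgeR. DESeq2 called 2 of them, Med26 and Med27, and so did edgeR, with Med10 in addition, without the first Tdrd6-/- library. Med26 had the smallest adjusted p: its introns had 5154 and 4270 counts in Tdrd6+/- and 3640 and 2148 in Tdrd6-/-, or 408 and 353 against 269 and 210 CPM. Both Tdrd6-/- values were below both Tdrd6+/- values, and the log2 fold change was -0.67 ± 0.21 (adjusted p = 0.114). Intron 2 of this minus-strand gene, numbered along the chromosome and so the first in the transcript, held between 96.1% and 98.8% of these counts. The antisense gene Gm17435 overlaps the locus. Med27 had 237 and 223 against 170 and 143 CPM, a log2 fold change of -0.56 ± 0.21 (adjusted p = 0.194). On the other side were Med10 with 0.56 ± 0.23 (adjusted p = 0.258) and Med25 with 0.44 ± 0.24 (adjusted p = 0.451).

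On the separate scale of introns, the changes were smaller than those of gene counts for the called genes other than Cdk19. The size of this gap depends on the scaling, and a common scale for genes and introns was not tested. Cdk8 introns had 273 and 391 CPM in Tdrd6+/- and 225 and 316 in Tdrd6-/-, which overlapped, and a log2 fold change of -0.30 ± 0.21 (adjusted p = 0.577). For Med15 the value was -0.26 ± 0.21, for Med13l -0.39 ± 0.21 and for Med13 -0.13 ± 0.21 (adjusted p = 0.632, 0.43 and 0.818). In Cdk19 the value for introns, -0.53 ± 0.22 (adjusted p = 0.257), was as large as that for the gene count, -0.48.

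A test of the difference between both changes, added after the Cdk8 values had been seen, was then run in a single edgeR model, and it covered 29 members, since 4 had merged gene rows. It called 2 of them, against 2.00% of 15190 genes. Gene and intron counts kept their separate scales here. In Cdk8 the gene count fell by 0.78 ± 0.20 more than the intron count on the log2 scale (adjusted p = 0.0418). In Med26 the gene count was at 168 and 229 CPM in Tdrd6+/- and 201 and 189 in Tdrd6-/-, and its change lay 0.67 ± 0.19 above that of the introns (adjusted p = 0.0791). Both calls were lost without the first Tdrd6+/- library and without the second Tdrd6-/- library, at -0.51 and -0.47 for Cdk8 and 0.35 and 0.54 for Med26. Without the first Tdrd6-/- library 5 members were called, Med7, Med10 and Med27 in addition. For Med15, Med13, Med13l and Cdk19 the differences were -0.30 ± 0.16, -0.32 ± 0.16, -0.18 ± 0.16 and 0.07 ± 0.17, none of them called.

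**Figure D4:**
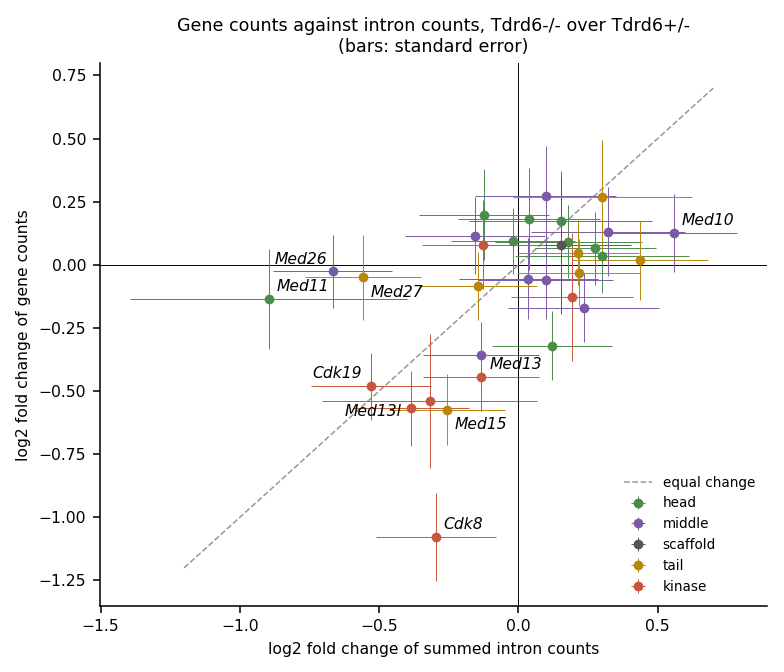
Log2 fold change of gene counts against that of summed intron counts (Tdrd6-/- over Tdrd6+/-) for the 33 Mediator genes, with standard errors and a dashed line of equal change. Gene and intron counts were each scaled among themselves. Cdk8 lies below the line at -1.08 against -0.30, and Med26 lies above it at -0.03 against -0.67.

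The introns were next examined one at a time, as each intron's count relative to the other introns of its gene. Introns are numbered along the chromosome, so in the minus-strand genes Med15 and Med26 the numbers run against the transcript. Intron 10 of Med15 thus lies between exons 8 and 9. Of the 415 introns of the members 362 had at least 10 counts and could be fitted, and 71 introns of 24 genes had enough counts for the test (a mean of 85.5 normalised counts). No member intron was called (0 of 71, against 1.94% of 28903 introns), with 3 at an unadjusted p under 0.05, and edgeR's own usage test called 0 as well. Intron 10 of Med15, intron 2 of Med26 and intron 10 of Med27 passed in fits with a library left out. Such fits leave 1 library in a genotype, and these introns are not read as a result about the members. Among introns with a usage change under 0 the smallest adjusted p belonged to intron 5 of Cdk19 (chr10:40454073-40466637), which had 795 and 646 counts in Tdrd6+/- and 463 and 253 in Tdrd6-/-. It made up 11.8% and 11.4% of the intron counts of Cdk19 against 8.74% and 8.24%, a log2 usage change of -0.50 ± 0.17 (adjusted p = 0.117). Intron 10 of Med27 (chr2:29478434-29496510) made up 8.43% and 9.58% against 7.26% and 4.801% of its gene's intron counts, a log2 usage change of -0.61 ± 0.24 (adjusted p = 0.251). On the other side, intron 12 of Cdk19 (chr10:40477969-40479674) had a log2 usage change of 0.52 ± 0.27 and intron 1 of Med19 (chr2:84678662-84685190) of 0.55 ± 0.30 (adjusted p = 0.509 and 0.518), and the samples of the genotypes overlapped in Med19.

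Exon segments and splice junctions were tested as their count relative to the rest of the gene's count. The 4 members with merged rows were left out, and 760 features were fitted. Enough counts (a mean of 53.4 normalised counts) were held by 294 segments of 27 genes and 138 junctions of 23 genes. The test called 3 of the 432 member features, all of them segments of Med15, against 0.221% of 147710 features. Of the 432, 29 had an unadjusted p under 0.05, and the same share over all features was not counted. None of the 138 junctions was called, with 8 at an unadjusted p under 0.05.

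In Med15 the called segments were the last exon, used less, and a pair of neighbouring coding exons, used more. Segment E009, exon 10 (sequence above), had 89 and 120 counts in Tdrd6+/- and 187 and 145 in Tdrd6-/-. It rose from 4.40% and 4.76% of the gene count to 10.1% and 8.38%, so that the genotypes were well apart, with a log2 usage change of 1.08 ± 0.22 (adjusted p = 0.00125). Segment E008, exon 11 (sequence above), had 141 and 168 against 218 and 170 counts, or 6.97% and 6.67% against 11.8% and 9.82% of the gene count. Its log2 usage change was 0.73 ± 0.19 (adjusted p = 0.0852). Segment E001, the last exon, which holds the stop codon (chr16:17651211-17652263, 1053 bases), had 1020 and 1214 counts against 711 and 724. Its share fell from 50.4% and 48.2% to 38.3% and 41.8%, a log2 usage change of -0.54 ± 0.12 (adjusted p = 0.0166).

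The other Med15 segments had lower ratios of the Tdrd6-/- to the Tdrd6+/- mean CPM on both sides of exon 10. On the 5' side the course was uneven, with 0.637, 0.609, 0.569, 0.636, 0.818 and 0.596 in exons 1 to 6. It was 0.83 in exon 7, 0.895 in exon 8, 1.02 in exon 9, 1.36 in exon 10 and 1.07 in exon 11. After that it fell without a break over the 7 exons to the end, from 0.956 in exon 12 to 0.547 in the last exon. Exon 10 thus had more counts in Tdrd6-/- while the whole gene had fewer. Intron 9, upstream of exon 10, had 229 and 211 counts against 210 and 117. Intron 8, between exons 10 and 11, had 2 and 8 against 10 and 4 counts, too few to compare. Each of the 3 Med15 calls was lost in edgeR's own usage test and without the first Tdrd6+/- or the first Tdrd6-/- library, and only E009 was called without the second Tdrd6-/- library. E008 was also lost without the second Tdrd6+/- library.

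**Figure D5:**
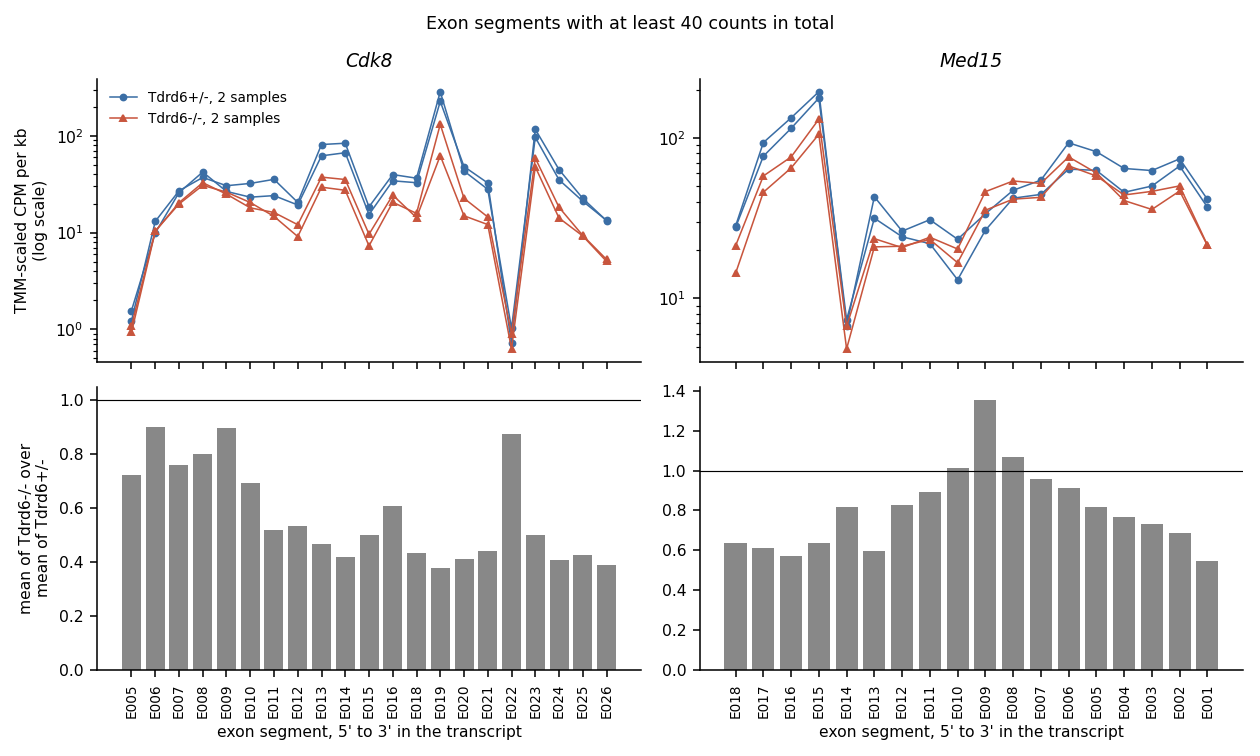
Exon segments of Cdk8 and Med15 in 5' to 3' order of the transcript. The upper panels give the TMM-scaled CPM per kb of each of the 4 samples (log axis), and the lower panels the ratio of the Tdrd6-/- mean to the Tdrd6+/- mean with a line at 1. In Cdk8 the ratio drops from 0.895 at E009 to 0.517 at E011, and in Med15 it peaks at 1.36 at E009. Very short segments are inflated per kb, because any read that touches a segment counts for it.

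No segment of Cdk8 was called. The course along the gene is described because Cdk8 fell most, and it was chosen after its values were seen. The segments E006 to E010, which span exons 2 to 4, had 231 and 217 counts in Tdrd6+/- and 212 and 210 in Tdrd6-/- in sum, and a ratio of 0.799 after scaling. The 18 segments E011 to E028, from exon 5 on, had 1199 and 1244 counts against 637 and 602, and a ratio of 0.431. A read counts for each segment it touches, so the sums hold reads more than once, and the latter exceed the gene counts. Taken as sums, the ratio was lower downstream of the border between exons 4 and 5, whose sequences are given above, and this difference was not tested. Single segments with few counts lay on the other side of it. In exon 1, E003 and E004 had at most 5 counts a sample and ratios of 0.487 and 0.428, and E005 had 13 to 19 counts and a ratio of 0.724. Downstream, E022 had 12 to 17 counts and a ratio of 0.876. Within exon 4 the ratio was 0.895 in E009 and 0.694 in E010, and exon 5 had 0.517. Segment E009 made up 7.57% and 6.62% of the gene count in Tdrd6+/- and 13.2% and 13.6% in Tdrd6-/-, but its log2 usage change of 1.02 ± 0.31 did not pass (adjusted p = 0.231). The main part of the last exon, E026, had 436 and 461 counts against 208 and 201, and a log2 usage change of -0.62 ± 0.17 (adjusted p = 0.134). The summed introns, scaled among introns, had a ratio of 0.837 for introns 1, 3 and 4 together. It was 0.786 for the 6 of introns 5 to 11 that had enough counts to be fitted. Intron 2 alone held 58.7% to 79.6% of the intron counts of Cdk8 and had a ratio of 0.814.

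Reads could be shared between some of these genes. Cdk8 and Cdk19, Med12 and Med12l, and Med13 and Med13l are paralogs, a processed pseudogene (Gm15739) lies in intron 1 of Cdk8, and Brip1os runs antisense over part of Med13. Of the 33 members 17 are overlapped by an annotated gene on the opposite strand. Whether the counting used the strand is not given in the sources used here, so the reads of a gene and of its antisense partner cannot be told apart.

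For comparison, the genes of the general transcription factors that assemble with Mediator at promoters were read from a list of 38 genes, of which 36 were tested. Gtf2a1, which encodes a subunit of TFIIA, was the only gene of the list called. It fell from 192 and 166 CPM in Tdrd6+/- to 129 and 127 in Tdrd6-/-, a log2 fold change of -0.48 ± 0.13 (adjusted p = 0.0452). None rose, and the median log2 fold change of the 36 genes was 0.11, beside 0.01 over all genes tested.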

How the data were processed

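Total RNA from hCD4+ germ cells of 20 dpp testes, pooled from mice of each genotype, was sequenced by the authors in duplicate (2 Tdrd6+/- and 2 Tdrd6-/- samples). Per the methods, reads were aligned with GSNAP to mm10 and the Ensembl annotation, and bcl2fastq 1.8.4 is named in the submitters' notes. The authors deposited raw counts: per gene, exon segment and junction, and per intron. The counting program and its use of strand are not given in the sources used here.

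Members and lists were chosen with earlier results of these data known. Symbols were matched by Ensembl gene ID. Exon lengths and places used those GENCODE M21 transcripts whose number of segments best matched the deposited tables (83.0% of 10482 genes). The Med15 segments were placed by a single transcript with as many exons. Merged rows of overlapping genes were kept as units. Tests ran across all features: edgeR 4.0.16 (quasi-likelihood, TMM, filterByExpr) for gene counts and summed introns, and DESeq2 1.42.0 likelihood ratio tests of the DEXSeq and JunctionSeq models for usage, under R 4.3.3, with Benjamini-Hochberg adjustment and calls at 0.1. Features needed at least 10 counts in total. Functions were tested on simulated data.

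The named genes were all members, with full values for those called, for the largest changes up and down and for the highest and lowest levels per module. Introns and segments named were those called, or otherwise, for either direction, the 2 of lowest adjusted p. The Cdk8 segments, the test of gene against intron counts and the length correction were added after seeing the data. Alternatives were other size factors, no filter, DESeq2 or edgeR in place of the other tool, other size factors and a minimum of 50 counts for usage, levels with other lengths or none, modules without the members of uncertain place, a replicate block, each sample left out, and a rate of 0.05. Replicates differed by more than counting noise (chi-square per degree of freedom 20.3 and 17.8), so none was treated as a library deposited again.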

Additional observations from a re-analysis of the deposited data

Results flagged for a closer look

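An unannotated splice junction of Med10 (N008 in the deposited table), outside the rows used above, had 10 and 9 counts in Tdrd6+/- and 16 and 19 in Tdrd6-/-, 35 in sum. It is listed because both Tdrd6-/- samples lay above both Tdrd6+/- samples. The other 3 unannotated junctions of members, 1 of Med15 and 2 of Med25, did not meet this rule, which looked only for higher counts. N037 of Med15 had 81 and 110 counts in Tdrd6+/- against 70 and 53 in Tdrd6-/-. N037 of Med25 had 13 and 19 against 12 and 12, so both of these lay lower. In N036 of Med25 the genotypes overlapped. These counts were neither scaled nor tested, and the share of all junctions that meet the rule was not counted.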

How the results depend on the processing

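With 2 pools per genotype, a single library decided many calls. Leaving out each sample in turn gave between 257 and 1064 genes and 1 to 5 Mediator genes called on gene counts, 4 to 951 genes and 0 to 3 members on intronic counts, 58 to 964 genes and 0 to 5 members for gene against intron counts, 4 to 1175 introns and 0 to 3 of members, and 51 to 763 segments and junctions and 0 to 3 of members. Against the main counts of 794, 214, 304, 561 and 327, no filter gave 75 genes (1 member) and removal of the length trend 471 (2 members) on gene counts. DESeq2 gave 396 genes (2 members) on intronic counts. A rate of 0.05 gave 112 genes on intronic counts, 165 (1 member) for gene against intron counts and 338 introns. edgeR's usage test gave 2 introns and 80 segments or junctions (0 members). The cause of these differences was not tested.

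The replicate numbers do not pair the samples by the labels, and same-numbered samples deviated oppositely (r = -0.12 over 12347 genes). With the replicate block, 1046 genes and 6 members were called on gene counts (Med1 in addition), 189 genes and 1 member (Med26) on intronic counts, 881 introns and 2 of members, both of Med26, and 306 segments and junctions and 3 of members. These 3 were E001 and E009 of Med15 and E012 of Med28, while E008 of Med15 lost its call (adjusted p = 0.125). Crossing the numbers gave 1175 genes (5 members) on gene counts and 82 genes (0 members) on intronic counts.

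The module medians of level, divided by the median of all members, were 0.95 for the head, 1.99 for the middle, 0.036 for the scaffold, 1.19 for the tail and 0.39 for the kinase module. In CPM without length correction they were 1.04, 1.20, 0.098, 1.67 and 0.66. With exon lengths from all M21 transcripts the head had 1.08, the middle 1.24, the tail 0.70 and the kinase module 0.27. The kinase module stayed below head, middle and tail under each of these. The module medians of change ran from 0.028 to 0.16 for the head, -0.08 to -0.00039 for the middle, -0.21 to 0.33 for the scaffold, -0.058 to 0.10 for the tail and -0.61 to -0.33 for the kinase module with each sample left out, and the latter was -0.28 without the length trend.

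Of 324 alternatives to the 38 named values, 274 kept direction and side of the threshold, 32 lost the call, 8 gained it and 10 changed sign. The last all left out 1 sample and none was called: gene counts of Ccnc (-0.085 to 0.28), Med14 (-0.21 to 0.33), Med16 (-0.016 to 0.13), Med26 (-0.22 to 0.21) and Med29 (-0.012 to 0.51), intronic counts of Med13 (-0.32 to 0.059), and gene against intron counts of Cdk19 (-0.080 to 0.21).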
